A study of Arabidopsis thaliana with 24 samples.

Results

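The leaf tip and the petiole base of Arabidopsis thaliana in white light, with no added far-red light and no touch, were compared on 6 of the 24 arrays of a study of far-red enrichment. The members were all 3 arrays labelled as control leaf tip and all 3 labelled as control petiole base. The plants were 28 d old and had grown singly in pots under 9 h of light a day, with photosynthetic light at 140 µmol per square metre and second, red and far-red light in a ratio (R:FR) of 2.3 and a temperature of 20 °C. The tip was the uppermost 2.5 mm of the lamina and the base the lowest 1.5 mm of the petiole, taken from the same fifth-youngest leaf after 5 h of the light period under study. The labels state 3 independent biological replicates, but not the plant line, the number of plants in a replicate or what a replicate number marks. The other 18 arrays hold the same leaf pieces after touch in unchanged light, after local far-red that lowered R:FR to 0.05 at the leaf tip while the base stayed at 2.3, and after whole far-red that lowered R:FR to 0.05 over the rosette.

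An Arabidopsis leaf matures from its tip towards its base. Cells at the tip of a rosette leaf stop dividing early and become photosynthetic tissue that exports sugar through the phloem. Cells near the junction of blade and petiole keep the capacity to divide and to expand for longer. The petiole itself is a stalk of elongated cells with much vascular tissue, and its growth lifts the blade towards light. The comparison therefore asks which transcripts distinguish a differentiated, light-exposed piece of blade from a supporting piece of stalk in the same untreated leaf.

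Signals are the deposited values on the log2 scale, so a difference of 1 is a 2-fold difference in signal. A positive difference means higher in the tip and a negative difference means higher in the base. The 17504 probe sets with a gene were tested in limma, and a probe set was called at an adjusted p (Benjamini-Hochberg) below 0.05. In each piece of tissue, fewer cells of a type and less RNA per cell cannot be told apart. A level is compared only with the same probe set in other samples, since probe sets differ in how strongly they bind.

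The tip and the base differed in a large share of the transcriptome. Of all probe sets tested 28.7% were called, 13.5% in favour of the tip and 15.2% in favour of the base, and in 38.7% the 3 tip arrays and the 3 base arrays did not overlap. Most differences were small, since the median size of a called difference was 0.83 and the median SE of a difference was 0.17. At least 2-fold differences were called for 914 probe sets on the tip side and 984 on the base side. At least 16-fold differences were rarer, with 20 on the tip side and 36 on the base side, and at least 32-fold differences were called for 7 and 17. The largest differences thus lay more often on the base side, although calls of either direction were nearly equal in number.

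**Figure D1:**
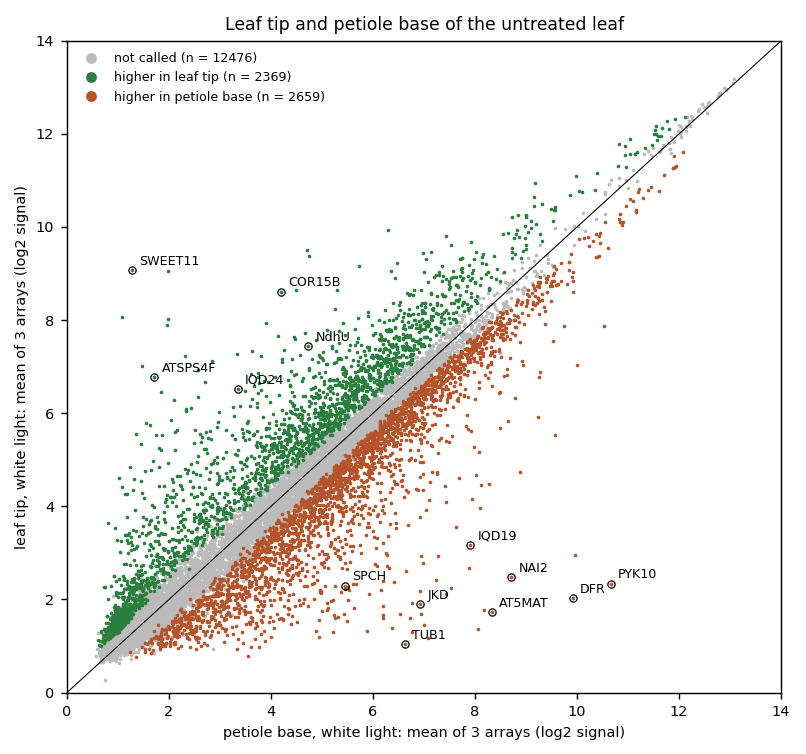
Mean log2 signal of the 3 control petiole base arrays (x axis) and the 3 control leaf tip arrays (y axis) for the 17504 probe sets with a gene. Points above the diagonal are higher in the tip; green marks the 2369 called for the tip, brown the 2659 called for the base and grey the probe sets not called, and the named genes lie far from the diagonal.

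The labelled tissues were checked against marker genes. All 5 measured markers of lamina mesophyll, namely LHCB4.1, LHCB4.2, LHCB4.3, CHLM and PORB, were higher in the tip, and their mean signal ranged from 7.98 to 8.19 over the tip arrays and from 7.15 to 7.49 over the base arrays. LHCB4.3 was dim at both ends, with a tip mean of 2.66 and a base mean of 2.07, and its call was lost without tip replicate 2 (adjusted p = 0.208) or base replicate 1 (adjusted p = 0.270). The other 4 had means of at least 7.10 in each tissue. Both measured markers of dividing cells, AUR1 and AUR2, were higher in the base, where their mean signal ranged from 3.82 to 5.75 against 2.48 to 2.51 in the tip. AUR2 alone differed by -1.81, which was -2.49 without base replicate 2 and -1.23 without base replicate 3. LOB, which marks organ boundaries and was the only marker of the petiole base measured by name, stood at 2.94, 1.19 and 3.14 in the base and at 1.56, 1.23 and 1.08 in the tip. Its groups overlapped, because base replicate 2 lay among the tip arrays, although the probe set was called (difference -1.13, SE 0.41, adjusted p = 0.0431). The difference was -1.75 without base replicate 2, and in the other 5 fits without 1 array LOB was not called (adjusted p from 0.0523 to 0.224). Other markers did not all point 1 way. SWEET11, listed for phloem, was higher in the tip by 7.80, and TRY, listed for trichomes, by 1.47. Of the stomatal lineage markers FMA was higher in the tip, SPCH was higher in the base and MUTE was not called. The markers of xylem and of senescing leaf were not analysed here by name.

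The 3 base arrays were less alike than the 3 tip arrays in some gene groups. Over the 17 measured genes of the cell cycle list the mean signal was 4.74, 4.53 and 5.33 in base replicates 1, 2 and 3, and 3.50, 3.61 and 3.59 in the tip. For the 4 antenna genes it was 6.89, 7.24 and 6.95 in the base and 7.81, 7.95 and 7.97 in the tip. In both groups of genes base replicate 2 was the base array nearest to the tip. Across all probe sets tested with a gene the control arrays still correlated at 0.980 to 0.987 within a tissue, against 0.933 to 0.949 between tip and base arrays, which is a description over genes that are not independent. The part of this difference between base arrays in the results was not tested beyond leaving out each array in turn.

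Of the genes with a symbol, SWEET11, ATSPS4F and COR15B had the largest differences in favour of the tip. SWEET11, a sucrose transporter that loads the phloem, had 9.10, 8.94 and 9.17 in the tip arrays and 1.57, 1.28 and 0.96 in the base arrays. All tip arrays were thus far above all base arrays, whose signals lay around the 25th percentile of the base arrays (1.18), so the true ratio may exceed the measured 222-fold. ATSPS4F, which encodes a sucrose phosphate synthase, had 6.79, 7.02 and 6.53 in the tip and 1.33, 2.15 and 1.67 in the base. Its groups were again clearly apart (5.07, SE 0.17, adjusted p = 1.74e-15), a 33.5-fold difference. COR15B, a chloroplast protein that protects membranes during freezing, had 8.41, 8.73 and 8.70 in the tip and 4.37, 3.81 and 4.41 in the base. Here the base arrays showed a clear signal as well, and the difference was 4.42 (SE 0.31, adjusted p = 3.93e-10).

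Smaller tip differences followed. IAA29, a repressor of auxin response, differed by 3.60 (SE 0.31), IQD24, a calmodulin-binding protein of microtubules and membranes, by 3.18 (SE 0.14), and FIB, a protein of the lipid droplets inside chloroplasts, by 2.76 (SE 0.15). The carboxypeptidase-like gene scpl20 followed at 2.72 (SE 0.18) and MYR2, a MYB-related factor, at 2.61. FAMT, which encodes a farnesoic acid methyltransferase, was less even. Its tip arrays read 5.65, 6.08 and 5.19, and its base arrays 1.55, 4.85 and 1.11. Base replicate 2 stood apart from the other base arrays and came close to the tip, so the difference of 3.14 (SE 0.66, adjusted p = 0.000751) became 4.31 without that array and 2.44 without base replicate 3.

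**Figure D2:**
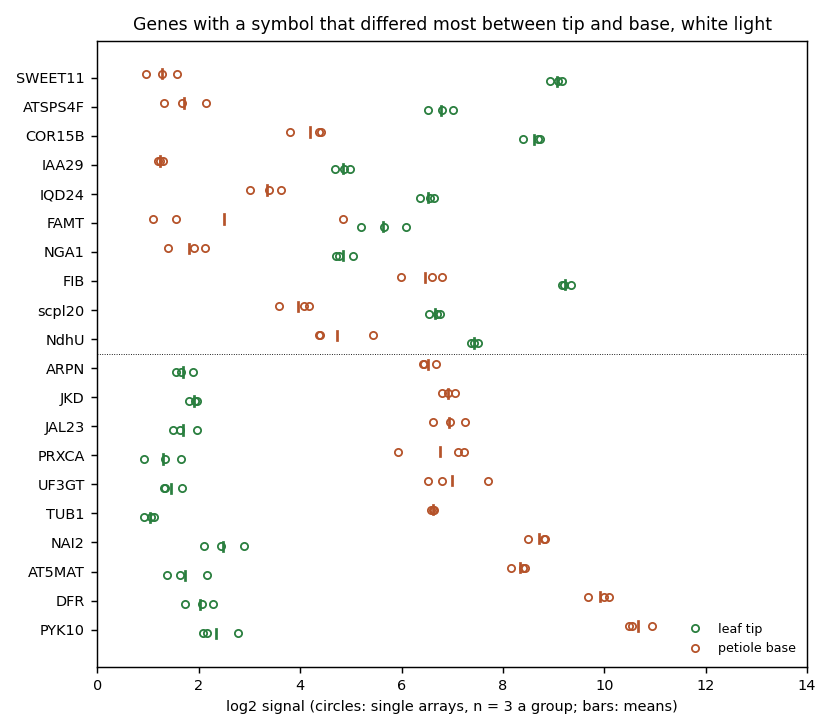
Log2 signal of single control arrays (circles, 3 leaf tip in green and 3 petiole base in brown, x axis) and group means (bars) for the 10 genes with a symbol that differed most towards the tip, above the dotted line, and towards the base, below it. Tip and base arrays are fully separated for every gene shown; the base arrays of FAMT spread from 1.11 to 4.85, the widest spread in the plot.

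In 4 short lists of photosynthesis genes the measured members were called higher in the tip with few exceptions, and none was called higher in the base. Most genes of the chloroplast genome, given below, were not called. All 4 measured antenna genes, 5 of 6 genes of the photosystems and electron transport, 3 of 3 Calvin cycle genes and 6 of 7 chlorophyll synthesis genes were higher in the tip. Their differences were modest beside those of the leading tip genes. PSAN, a subunit of photosystem I, read 10.25, 10.11 and 10.31 in the tip and 8.52, 9.17 and 8.46 in the base, which is a difference of 1.51 (SE 0.15, adjusted p = 5.82e-08). SBPASE, the Calvin cycle enzyme sedoheptulose bisphosphatase, read 10.43, 10.33 and 10.62 against 9.02, 9.29 and 9.16 (1.30, SE 0.15), and HPR, the hydroxypyruvate reductase of photorespiration, 9.62, 9.77 and 9.64 against 7.64, 8.33 and 7.76 (1.77, SE 0.18). All 3 genes separated the tissues without overlap while keeping a strong signal in the base. The genes HEME1 and HEME2, for an early enzyme of chlorophyll and heme synthesis, differed by 1.07 and 0.99, and RCA, the activase of Rubisco, by 0.78. PGRL1B, of cyclic electron flow, at 0.30, and HEMA3, a glutamyl-tRNA reductase, at -0.25, were not called.

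The largest differences among the measured genes of photosynthesis were those of the chloroplast NADH dehydrogenase-like (NDH) complex. This complex returns electrons from ferredoxin to the plastoquinone pool and so drives cyclic electron flow around photosystem I. NDH genes were chosen as a group after several were seen among the largest tip genes, so their count is a description. Of 18 measured genes 17 were called higher in the tip, and none was called higher in the base. The count of 17 fell to 12 when only the 6 control arrays were fitted, and was 16 to 17 when each array was left out. The nuclear gene NdhU read 7.50, 7.44 and 7.37 in the tip and 4.38, 5.44 and 4.38 in the base. Base replicate 2 was the highest base array here too, but it remained below every tip array (2.70, SE 0.28, adjusted p = 1.23e-07). NdhN differed by 2.53 (SE 0.22), PIFI, an auxiliary protein of the complex, by 2.45 (SE 0.13), and NdhL by 2.38 (SE 0.20). The assembly factor CRR42 differed by 1.50, and CRR21 and CRR22, which edit chloroplast NDH transcripts, by 1.36 and 1.01. The 10 subunit genes encoded in the chloroplast genome differed less, from 0.28 for ndhD, a call lost in 5 of the 6 fits without 1 array, to 0.85 for ndhF. CRR41, at 0.34, was the member not called.

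Chloroplast-encoded transcripts leaned to the tip by small amounts. Of 63 probe sets for genes of the chloroplast genome 21 (33.3%) were called higher in the tip and none was higher in the base. Over all probe sets tested 13.5% were called for the tip and 15.2% for the base. The median difference was 0.12 against 0.06 over all probe sets tested. All the NDH subunit genes encoded in the chloroplast genome are among the 21. This count and that of the NDH group therefore overlap and are not separate results. The called ones included ndhF, ndhI at 0.79, psbN at 0.64 and ndhG at 0.63. The genes psbA and rbcL, which code for the reaction centre protein of photosystem II and the large Rubisco subunit, differed by 0.04 each and were chosen after their values were seen. The count of 21 fell to 13 without base replicate 3 and to 9 when only the 6 control arrays were fitted.

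Sugar transporters went both ways. Of 21 measured sugar transport genes 4 were higher in the tip and 4 in the base, shares of the same order as those over all probe sets. Besides SWEET11, the tip list held SWEET13, another plasma membrane sucrose exporter, with 3.83, 4.45 and 4.48 against 1.94, 1.96 and 1.97 in the base. Its difference of 2.29 (SE 0.25) separated the groups fully. On the base side stood TMT1, which imports sugar into the vacuole, with 9.26, 9.48 and 9.03 in the base and 6.60, 6.70 and 7.03 in the tip. That is 5.59-fold higher in the base (-2.48, SE 0.15, adjusted p = 2.74e-11). SWEET17 and SWEET16, which carry fructose and other sugars across the vacuole membrane, differed by -1.96 (SE 0.22) and -0.69 (SE 0.24). SWEET16 was not called without tip replicate 1 (adjusted p = 0.183) or base replicate 2 (adjusted p = 0.198). Of the 16 measured SWEET family genes 4 were thus called for the tip, 2 for the base and 10 were not called.

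Starch genes mostly favoured the tip. Of 7 measured, 4 were higher in the tip and 2 in the base, 85.7% called against 28.7% over all probe sets. The dikinase gene PWD at AT5G26570, which opens starch for breakdown, differed by 1.05 (SE 0.13), and a second locus named PWD in the annotation, AT4G24450, by 0.74 (SE 0.19). SBE2.2, a starch branching enzyme, was higher in the tip by 0.95, while APL4, a large subunit of the first enzyme of starch synthesis, had a difference of -1.32. APL3, another large subunit, was not called at -0.10.

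**Figure D3:**
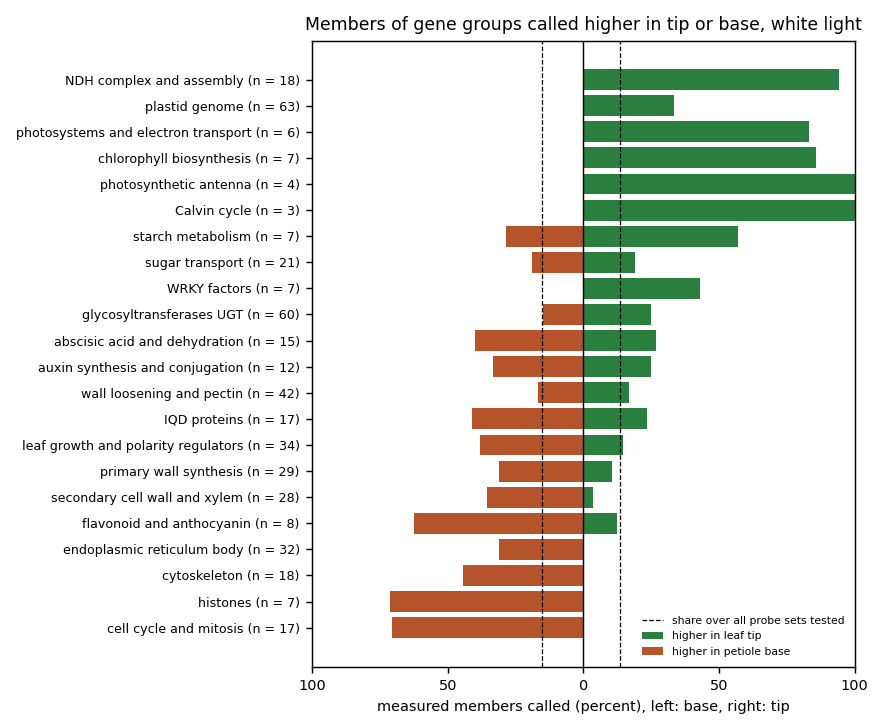
Share of the measured members of 22 gene groups called higher in the leaf tip (green, right) and higher in the petiole base (brown, left), in percent, with the number of measured probe sets in brackets. Dashed lines give the shares over all probe sets tested, 13.5% for the tip and 15.2% for the base; photosynthetic groups extend only to the right and cell cycle, histone, cytoskeleton and endoplasmic reticulum body groups only to the left.

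Several of the largest base differences belonged to genes of the endoplasmic reticulum body. These spindle-shaped stores of beta-glucosidase are best known from roots and seedlings, and their enzyme is released on damage to cleave defence glucosides. Of 32 measured genes for beta-glucosidases, body proteins and associated lectins 10 were higher in the base and none in the tip. Over all probe sets 28.7% were called, 15.2% for the base, against 31.2% called here. These genes were listed by symbol, so the beta-glucosidases among them need not all belong to the bodies. The count is therefore not one of body genes alone. The beta-glucosidase gene PYK10 was 320-fold higher in the base. NAI2, which is needed to form the bodies, read 8.81, 8.83 and 8.50 in the base and 2.11, 2.45 and 2.89 in the tip. The groups were fully apart, with a difference of -6.23 (SE 0.36, adjusted p = 1.84e-11). The jacalin-related lectin gene JAL23, a partner in the PYK10 complex of roots, read 6.96, 7.26 and 6.62 against 1.49, 1.62 and 1.97 in the tip (-5.25, SE 0.44). JAL22 and JAL34, 2 further lectins of that complex, differed by -3.69 (SE 0.27) and -3.65 (SE 0.30), and GLL23, a lipase-like protein listed under AT1G54010, by -3.66. BGLU47, a beta-glucosidase listed by its family name and not as a known body protein, differed by -4.08 (SE 0.26). NAI1, the transcription factor gene known to control these genes, read 1.89, 1.50 and 1.93 in the base and 1.02, 1.45 and 0.88 in the tip. It was not called (-0.65, SE 0.27, adjusted p = 0.0711), and its signals lay near the low end of the arrays. Of the 32 members 22 were not called, and 6 had both means below the 25th percentile.

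Anthocyanin genes were another base group. Anthocyanins are red pigments that petioles and young leaves often hold. Of 8 measured genes of flavonoid and anthocyanin synthesis 5 were higher in the base and 1 was higher in the tip, at a median difference of -2.87. UF3GT, which adds a sugar to the anthocyanin core, read 7.70, 6.80 and 6.51 in the base and 1.68, 1.32 and 1.34 in the tip. The groups did not overlap (-5.56, SE 0.34, adjusted p = 4.40e-11). CHIL, a helper protein of chalcone synthase, read 7.40, 7.08 and 6.34 in the base and 3.40, 2.55 and 2.85 in the tip (-4.01, SE 0.31), and the flavonoid glucosyltransferase gene UGT78D2 differed by -1.74 (SE 0.36). DFR, the enzyme that leads into the anthocyanin branch, was 238-fold higher in the base, and AT5MAT, which decorates the finished pigment, 97.7-fold. The glycosyltransferase genes UGT78D1, at -0.36, and UGT78D3, at 0.19, were not called. The member higher in the tip, UGT80B1 at 0.52, encodes a sterol glucosyltransferase named for the seed coat colour of its mutant. In the phenylpropanoid list, which supplies these pigments and lignin, 1 of 7 genes was called, 4CL8 with -2.97.

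Genes of cell division were higher in the base. Of 17 measured genes of the cell cycle list 12 were higher in the base and none in the tip, at a median difference of -1.33. The spindle checkpoint gene BUB3.2 read 4.74, 5.49 and 5.87 in the base and 2.93, 1.35 and 2.17 in the tip (-3.22, SE 0.37, adjusted p = 4.56e-07). KINESIN-12B, a motor of the cell plate, read 4.95, 4.20 and 6.03 in the base and 1.92, 2.56 and 2.39 in the tip (-2.77, SE 0.33). Both genes separated the tissues, but the base arrays spread widely, with replicate 3 highest in each. BUBR1, a second checkpoint gene, differed by -2.43 (SE 0.31), and the other Aurora kinase genes AUR3 and AUR2 by -1.89 and -1.81. Of 7 histone genes 5 were higher in the base, among them HTR12, the centromere histone, at -1.33 and HTB2 at -1.15. The cell cycle count stayed between 11 and 12 when each control array was left out in turn.

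The cytoskeleton genes pointed the same way, with 8 of 18 higher in the base and none higher in the tip. TUB1, a beta-tubulin, was even within each tissue. It read 6.59, 6.62 and 6.65 in the base and 1.13, 1.06 and 0.92 in the tip. The base arrays lay far above tip arrays that were below the 25th percentile of the tip arrays (1.32), and the difference was -5.58 (SE 0.19, adjusted p = 1.74e-15). The true ratio may therefore exceed the measured 47.9-fold. The beta-tubulin genes TUB7 and TUB6 differed by -1.83 and -1.53, and WDL3, a microtubule-binding protein listed under AT3G23090, by -1.98.

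Genes of wall synthesis were called in both directions. Of 29 genes for primary wall synthesis 9 were higher in the base and 3 in the tip, 41.4% called. Over all probe sets 28.7% were called, 15.2% for the base and 13.5% for the tip. GH9B8, an endoglucanase, read 6.85, 7.27 and 6.85 in the base and 2.67, 2.83 and 2.84 in the tip (-4.21, SE 0.23, adjusted p = 4.99e-12), an 18.5-fold difference with tight groups. GH9B13 of the same family read 4.82, 5.32 and 6.73 against 1.81, 1.97 and 1.66 in the tip. Its difference of -3.81 (SE 0.54) rested on base arrays that differed more among themselves. The members higher in the tip were CSLB03, a cellulose synthase-like gene, at 1.89 (SE 0.29), and the endoglucanase genes GH9B17 and GH9B18 at 0.91 and 0.75. GH9B18 was not called without base replicate 2 (adjusted p = 0.166) or without tip replicate 1 or 2. Of 28 genes for secondary wall and xylem 10 were higher in the base and 1 in the tip, 39.3% called. This list is mostly 1 family, since 23 of its 28 members are TBL genes, whose known products acetylate wall polymers. Of the TBL genes 8 were higher in the base, led by TBL39 at -1.87 and TBL33 at -1.58, and of the other 5 genes 2 were. TBL20, on the tip side at 0.37, lost its call in 5 of the 6 fits without 1 array.

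Of 42 measured wall-loosening genes 7 were higher in the tip and 7 in the base, which is near the shares over all probe sets, 13.5% and 15.2%. The expansin gene EXPB1 read 6.87, 6.51 and 7.13 in the tip and 4.32, 5.22 and 3.93 in the base (2.35, SE 0.25), and EXPA16 and EXPA9 differed by 2.12 (SE 0.29) and 1.69 (SE 0.25). EXPB3, of the same subfamily as EXPB1, read 5.46, 5.66 and 5.92 in the tip and 8.27, 8.45 and 8.72 in the base (-2.80, SE 0.20). These related genes were thus separated at both ends in opposite directions. XTH32, which encodes a xyloglucan-modifying enzyme, differed by -2.62 (SE 0.20) and the expansin-like gene EXLA2 by -1.82 (SE 0.21).

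**Figure D4:**
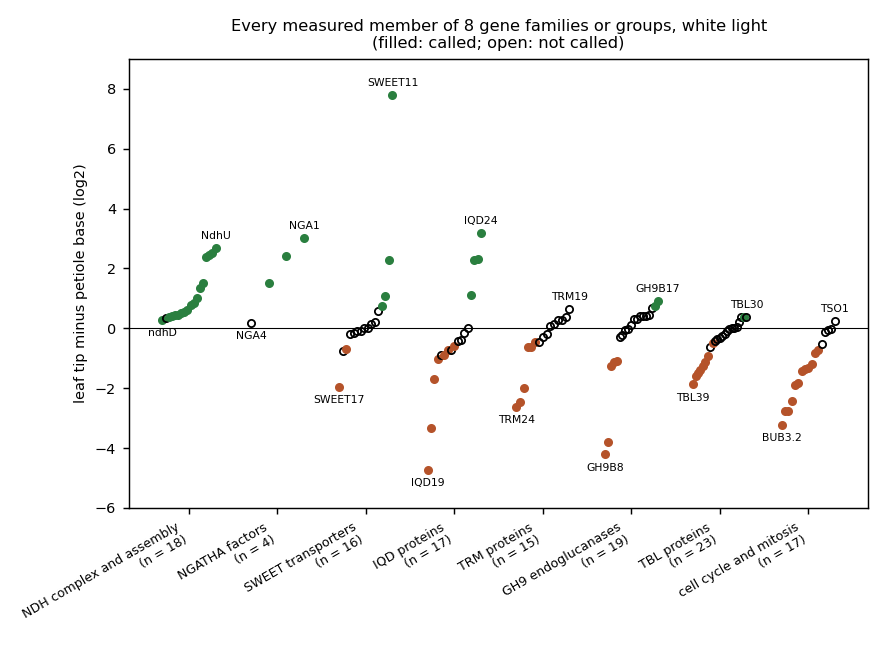
Leaf tip minus petiole base difference (log2, y axis) in white light for every measured member of 8 gene families or groups (x axis), each sorted from lowest to highest; filled points were called (green towards the tip, brown towards the base) and open points were not. NDH and NGATHA genes lie above 0, TRM and cell cycle calls lie below 0, and SWEET, IQD, GH9 and TBL members were called in both directions.

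Regulators of leaf growth and shape were called in both directions. Of 34 measured, 5 were higher in the tip and 13 in the base, 52.9% called against 28.7% over all probe sets. Over all probe sets 13.5% were called for the tip and 15.2% for the base, so the tip count is near the share over all. The NGATHA factors, which restrict the growth of lateral organs, made up 3 of the 5. NGA1 read 4.77, 5.04 and 4.72 in the tip and 1.91, 1.39 and 2.12 in the base (3.03, SE 0.19, adjusted p = 5.70e-11). NGA2 differed by 2.40 (SE 0.33) and NGA3 by 1.53 (SE 0.24), whereas NGA4, at signals of 1.09 to 1.41 in all 6 arrays, was not called (0.18). On the base side, TCP1, a factor known to promote brassinosteroid synthesis, read 5.10, 4.93 and 4.81 against 1.40, 1.26 and 2.04 in the tip (-3.38, SE 0.20, adjusted p = 2.42e-11). The groups were fully apart and the base arrays were close together. Members of the TRM family, proteins that help to position microtubules, were called higher in the base for 6 of 15 and higher in the tip for none, with TRM24 at -2.63 (SE 0.24), TRM25 at -2.47 (SE 0.25) and TRM28 at -1.98 (SE 0.17). The 6 TRM calls fell to 3 without tip replicate 1, without base replicate 1, or with only the 6 control arrays in the fit. Up to 1 TRM gene was called for the tip when 1 array was left out, and 0 to 2 in the other alternative fits. The YABBY genes, which set the lower leaf surface, were split. YAB2 differed by -1.91 (SE 0.20) and YAB5 by 0.79 (SE 0.19).

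The IQD family, whose proteins bind calmodulin and microtubules, was divided too. Of 17 measured members 4 were higher in the tip, 7 higher in the base and 6 were not called. Called members made up 64.7%, against 28.7% over all probe sets. IQD24 read 6.37, 6.64 and 6.55 in the tip and 3.40, 3.01 and 3.63 in the base. IQD19 showed the reverse, with 8.24, 7.94 and 7.54 in the base and 3.81, 3.19 and 2.51 in the tip (-4.74, SE 0.35, adjusted p = 7.86e-10). Neither gene overlapped between the tissues. The remaining tip members, iqd21, IQD22 and IQD23, differed by 2.32, 2.27 and 1.13, so that all 4 numbered from IQD21 to IQD24 were tip genes. IQD18 followed IQD19 on the base side with -3.34 (SE 0.27), and IQD30 with -1.70.

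Among other factors of development, the zinc finger gene JKD, known for patterning root tissue layers, read 6.92, 6.79 and 7.06 in the base and 1.80, 1.97 and 1.93 in the tip. That is 32.5-fold higher in the base with narrow spread in both groups (-5.02, SE 0.23, adjusted p = 2.45e-13). ARPN, which encodes the copper protein plantacyanin, differed by -4.83 (SE 0.17), and PRXCA, a peroxidase of the cell wall, by -5.46 (SE 0.50). The growth-promoting factor JAG was called as well (-1.40, SE 0.44, adjusted p = 0.0183), but its base arrays of 2.70, 1.18 and 3.86 and tip arrays of 1.32, 0.93 and 1.30 overlapped. The difference of JAG was -2.10 without base replicate 2 and -0.76 without base replicate 3 (adjusted p = 0.173), and its call was also lost without base replicate 1 or tip replicate 2.

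Of 4 measured genes of the stomatal lineage 2 were higher in the tip and 1 in the base. SPCH, which starts the lineage in dividing epidermal cells, read 6.04, 3.46 and 6.84 in the base and 2.33, 2.26 and 2.31 in the tip. All base arrays were higher, yet replicate 2 was far lower than the others, and the difference of -3.15 (SE 0.60, adjusted p = 0.000306) was -4.14 without base replicate 2 and -2.45 without base replicate 3. MUTE, of the next step, was not called (-0.35) at signals between 0.91 and 1.78. FMA, of the final guard cell division, was 2.39-fold higher in the tip. STOMAGEN, a peptide from mesophyll that promotes stomata, read 4.27, 4.64 and 4.59 in the tip and 2.92, 2.74 and 3.24 in the base (1.53, SE 0.21, adjusted p = 4.36e-06). Of 7 epidermis genes TRY and TCL1, small factors that limit trichome formation, were higher in the tip by 1.47 and 1.21, as was GIS, whose call was lost without base replicate 1 or tip replicate 2, while SHN2, a wax and cutin regulator, had -1.18.

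Few hormone genes were measured by name in each pathway. None of 4 ethylene, 2 brassinosteroid and 2 auxin transport genes was called, lists too short to read against the 28.7% called over all probe sets. Of 12 genes for auxin synthesis and conjugation 3 were higher in the tip and 4 in the base. The synthesis gene YUC2 read 2.60, 3.26 and 3.99 in the tip and 1.09, 1.11 and 1.30 in the base, and GH3.17, which couples auxin to amino acids, had a difference of -2.61. YUC4 and GH3.3 were called higher in the base although their groups overlapped. They read 2.34, 1.57 and 3.72, and 2.66, 2.05 and 5.22, in the base, where replicate 3 was highest. Without that array they had -0.40 (adjusted p = 0.206) and -0.53 (adjusted p = 0.367), and each also lost its call without 2 of the tip arrays. The base count of 4 was between 1 and 4 when each array was left out. Of 14 cytokinin genes 2 were called, 14.3% against 28.7% over all probe sets. Both were higher in the tip, a share near the 13.5% called for the tip over all probe sets. The larger was the response regulator RR16 at 2.45 (SE 0.24). The jasmonate methyltransferase gene JMT was higher in the tip by 2.08 (SE 0.29), while the jasmonate response factor MYC4 had -1.46 (SE 0.26) and its relative MYC3 was not called (-0.09). Of 5 gibberellin genes SLY1, of gibberellin signalling, had -1.03 and the receptor gene GID1A had 0.44, a call that was lost in 4 of the 6 fits without 1 array.

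Genes named for cold, drought and abscisic acid were divided, with 4 of 15 higher in the tip and 6 in the base. Besides COR15B the tip held KIN2, with 9.40 to 9.52 in the tip arrays and no more than 8.05 in the base arrays (1.44, SE 0.21). COR15A, the close relative of COR15B, differed by 0.90. The base held the dehydrins COR47, with 9.70, 10.03 and 9.52 against 8.07, 7.67 and 7.91 in the tip (-1.87, SE 0.15), and LTI30 with -1.36 (SE 0.32). Genes known for their induction by cold were thus called at both ends of the untreated leaf.

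Other groups held contrasts between close relatives. Among methionine sulfoxide reductases, which repair oxidised proteins, MSRB6 had a difference of 2.09 (SE 0.19), while MSRB4 and MSRB9 had -2.12 (SE 0.27) and -2.14 (SE 0.40). The cation exchanger gene CHX20, known from guard cells, had a difference of 2.25 (SE 0.17) and CHX16 had -1.43 (SE 0.19). The glutamate receptor-like genes GLR3.5 and GLR3.6 had 2.05 and -1.30. Of 26 mineral nutrient transport genes 3 were called in each direction, a share of 23.1% against 28.7% over all probe sets. The largest was NPF6.2, listed under AT2G26690, with -2.95. Of 60 probe sets for UGT glycosyltransferases 15 were higher in the tip, led by UGT87A2 at 1.92, and 9 in the base. Over all probe sets the shares were 13.5% and 15.2%. WRKY29 led 3 of 7 WRKY genes higher in the tip, at 2.06. In the defence list 6 of 74 were called, a smaller share than over all probe sets, and 45 of the 74 had both means below the 25th percentile, where differences can hardly show.

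Among the 5 largest differences of any name in each direction, 6 were at loci without a symbol and 4 at SWEET11, PYK10, DFR and AT5MAT. The tip loci were AT3G16670 at 7.09, AT2G32880 at 6.99, AT1G23130 at 6.06 and AT1G66100 at 5.94, and the base loci AT1G31710 at -6.99 and AT4G22485 at -6.69. The difference of AT3G16670 lay between 6.31 and 8.13, and that of AT4G22485 between -8.23 and -5.43, when single base arrays were left out. Some adjacent genes both had large differences. Among 76 genes with an at least 8-fold called difference whose next gene was also tested, the next gene passed the same limit in 6 cases, 7.89% against 0.758% of all such neighbours. At a 2-fold limit the excess was smaller, 131 of 896 or 14.6% against 10.8%, and 42 of the 131 pairs went opposite ways. In 5 of the 6 pairs both genes went the same way, among them AT2G32870 at 3.44 with AT2G32880, and AT4G22485 with AT4G22490 at -5.90, which was -7.00 without base replicate 2 and -4.86 without base replicate 3. In the other pair AT1G31690 was higher in the tip by 3.34 while AT1G31710 was higher in the base. Adjacent loci can be copies of each other whose probes share signal, which was not tested.

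The same contrast was then read in the arrays of the other treatments, which share no array with the control tip and base. After touch 4281 probe sets were called (24.5%), and 3233 of these were called in the same direction as in white light, 64.3% of the white light calls and 75.5% of the touch calls, with none in the opposite direction. Under local far-red 5084 were called (29%), 3620 of them as in white light (72% and 71.2%) and 10 the opposite way. Under whole far-red 6135 were called (35%), 3564 as in white light (70.9% and 58.1%) and 79 the opposite way. Of the white light calls 2551, or 50.7%, were made in the same direction in all 4 treatments. Of the 1898 white light calls of at least 2-fold, 87.4% were called the same way after touch. The arrays are separate, but all 4 contrasts come from 1 fit with a shared variance for each probe set, so the calls are not independent of each other.

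The change of the tip-minus-base difference with treatment was tested as well. Under whole far-red 1464 probe sets changed (8.36%), under local far-red 159 (0.908%), and after touch limma called 0, with 1507 at an unadjusted p below 0.05. Among the changes under whole far-red were 6 of 8 flavonoid genes and 4 of 18 NDH genes. None of the 17 cell cycle, 7 histone and 63 chloroplast genome probe sets was, and several other lists had no member there either; at a share of 8.36% a count of 0 says little for lists as short as the first of these. UF3GT went from -5.56 in white light to -0.51 under whole far-red (adjusted p = 3.73e-07). Between the same treatments NdhN went from 2.53 to 3.93 (adjusted p = 0.00513) and CRR42 from 1.50 to 2.84 (adjusted p = 0.00061). TUB1 and IQD19, at -5.74 and -4.32 under whole far-red, were not among the changes. The members of the NDH list called in white light were also called under whole far-red, 17 of 17.

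**Figure D5:**
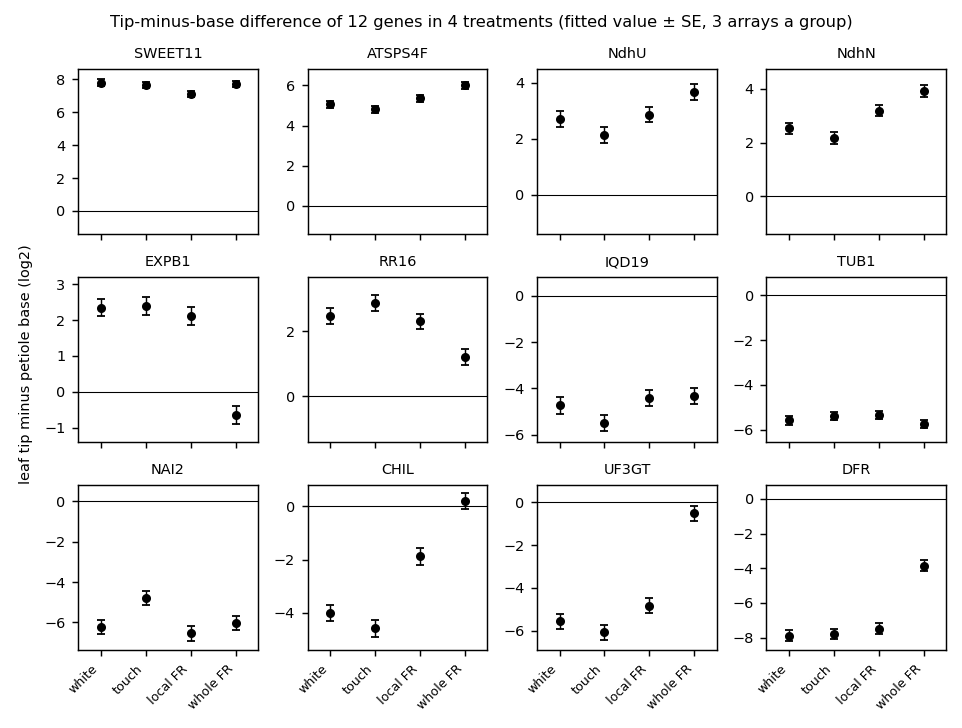
Fitted leaf tip minus petiole base difference (log2, y axis, with SE as error bars, 3 arrays a group) of 12 genes in white light, touch, local far-red (FR) and whole FR (x axis); scales differ between panels and the horizontal line marks 0. SWEET11, IQD19, TUB1 and NAI2 keep differences far from 0 in all 4 treatments, the NDH genes and ATSPS4F lie highest under whole FR, and EXPB1, RR16, CHIL, UF3GT and DFR lie closest to 0 or across it under whole FR.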

How the data were processed

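RNA was measured on 24 Affymetrix arrays, of which the 6 control arrays carry the comparison. The authors deposited RMA expression values on the log2 scale, from the core-gene setting of Expression Console, per the labels. RMA corrects background, equalises the signal distribution of arrays and summarises probes, so a shift shared by all genes is removed. Software version and array build are not given in the sources used here. The platform annotation named 1 gene for 16746 of 38408 probe sets and several for 758. The 17504 were tested and only single-gene probe sets are named (1777 with a symbol, otherwise a locus). The other 20904 are unnamed here, and 23.9% of them were called when all probe sets were fitted.

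limma 3.58.1 (R 4.3.3) was fitted to all 24 arrays with 1 mean for each of 8 groups, 16 residual degrees of freedom and eBayes without trend. All tests were two-sided, with a Benjamini-Hochberg adjusted p below 0.05 as a call. SE is the moderated standard error. The number of arrays, 3 a group, limits the precision. The fit was tested on simulated data with independent arrays and the same spread in every group. That does not cover effects shared between arrays or groups that differ in spread.

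Members and 52 gene lists (symbol patterns, with entries that the annotation contradicts taken out) were chosen with earlier results of these data known, and the NDH, IQD, TRM, TBL, GH9, NGATHA and SWEET groups after values were seen. Genes were named by rule: the 20 largest differences in each direction with a symbol, the 5 largest of any name, up to 4 called members of each list, uncalled members of small lists, and families whose members go opposite ways. Outside that rule, PORB, AUR2, AUR3, HEMA3, APL3, the CRR genes, ndhD, psbA, rbcL, AT1G54010, NAI1, UGT78D1, UGT78D3, UGT80B1, EXLA2, JAG, LTI30 and the pairs of adjacent loci were chosen after their values were seen.

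Deviations of same-numbered control tip and base arrays correlated at 0.013, 0.068 and 0.104 across probe sets, and those of differently numbered ones at -0.093 to 0.027. In the other treatments the same-numbered values were positive too, from 0.016 to 0.129. An effect shared by arrays of the same number was not tested. The labels do not say what a number marks, so the main fit has no pairs and the replicate block is an alternative. Alternatives were the replicate block, cyclic loess, robust eBayes with a variance trend, a fit of the compared groups alone, all probe sets of the file, the dimmest 30% dropped, and each array dropped in turn. Promoter and transcript sequences were not used here.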

Additional observations from a re-analysis of the deposited data

Results flagged for a closer look

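Of the 40 genes with a symbol and the largest differences between tip and base in white light, 16 had a tip-minus-base difference that itself differed under whole far-red, 2 under local far-red and none after touch, each by limma's test of the change. Over all probe sets tested the shares were 8.36% under whole far-red and 0.908% under local far-red. The 40 were chosen for a large difference on the same control arrays that enter each change, so a smaller size elsewhere can follow from the choice, and nothing is read from these counts. The values of the genes are as follows. UF3GT moved by 5.04 towards 0 (adjusted p = 3.73e-07), CHIL by 4.2 (adjusted p = 1.07e-06), DFR by 4.04 (adjusted p = 2.20e-06) and AT5MAT by 3.62 (adjusted p = 1.77e-08). Under local far-red CHIL moved by 2.12 (adjusted p = 0.0151). Among other base genes the lectin gene JAL22 moved by 2.21, TCP1 by 1.78 and ARPN by 1.75, all towards 0.

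Among tip genes the expansin gene EXPB1 changed by -3.00 (adjusted p = 4.68e-06), from 2.35 to -0.65. IAA29 changed by -2.16, CYP71B36 by -1.59, RR16 by -1.25 and PIF7 by -0.83, and PIF7 changed by -1.42 under local far-red. The genes with a larger difference under whole far-red were NdhN by 1.40, NdhL by 1.35, ATSPS4F by 0.94 and PIFI by 0.84. These changes share the same 6 control arrays.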

How the results depend on the processing

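With 165 named probe sets and 12 alternatives for the white light comparison, none of the 1975 values changed direction, 146 probe sets kept their call throughout and 96 values lost it, among them values of LOB, YUC4 and GH3.3. All 165 had been chosen among the called probe sets, and the alternatives refitted the same control arrays. A change of direction was thus unlikely from the start, and nothing is read from its absence. The count of 5028 calls was 5278 with the replicate block, 4665 after cyclic loess, 3648 with only the groups compared and 4231 to 4815 when each array was left out. Fitting all 38408 probe sets, more than were tested otherwise, gave 9725 in white light, 8000 after touch, 9897 under local far-red, 12469 under whole far-red and 2584 for the change under whole far-red. The change after touch, with 0 calls, had 3 with a variance trend and robust estimation and 0 to 21 when each array was left out, the 21 without control petiole base replicate 2. The change under local far-red, with 159 calls, had 76 with only the groups compared and 105 to 160 when each array was left out. Cyclic loess moved the median of all probe sets from 0.06 to 0.01. The replicate block left the counts of all 7 comparisons within 1.5 times. Leaving out 1 array moved the fold of 7 of these by over 1.5 times, which are AT3G16670, AT4G22485, SPCH, GH3.3, LOB, YUC4 and FAMT, and of 3 of the 43 other probe sets given, AUR2, JAG and AT4G22490. In each case the array was a petiole base array; without base replicate 2, LOB had -1.75 and GH3.3 had -2.11. Signals near the low end of the arrays limit what can be seen, since a lower level there cannot show.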
